A study of Homo sapiens with 15 samples.

Results

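The combination of thymoquinone and 5-fluorouracil was compared with untreated cells in HCT116, an established human colorectal carcinoma line. The samples were chosen by their labels: 3 samples named Combi 35 and 3 samples named Ctr, which make 6 of the 15 samples of the series, and 730 endogenous genes of the nCounter PanCancer Pathways panel were read in each. The Combi samples had received 35 µM thymoquinone (TQ) together with 35 µM 5-fluorouracil (5-FU) for 24 h, and the control samples (Ctr) were left untreated for the same time. All cells came from the same line and medium, and the submitters describe the 3 samples of a group as biological replicates of this 1 line. The other samples of the series had received 40 µM TQ, 15 µM 5-FU or 35 µM of a hybrid molecule named SARB for 24 h. The question was which signalling, cell cycle and repair genes differ in transcript level between Combi and untreated cells.

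5-FU is a pyrimidine analogue that blocks thymidylate synthase and is built into RNA and DNA. Thymoquinone is a redox-active quinone of Nigella sativa seed oil. Damage to DNA is known to raise the cyclin-dependent kinase inhibitor CDKN1A, the ubiquitin ligase MDM2 and several death receptors, while genes of DNA replication and mitosis are read mainly in cycling cells.

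The nCounter assay counts barcoded probes bound directly to RNA, without amplification, and all levels below are scaled counts: raw counts divided by a factor from the geometric mean of 40 housekeeping genes. Endogenous totals were 220040 to 258006 counts in control and 287333, 607782 and 527078 in Combi 1, 2 and 3. Control 1 was run on cartridge 1, control 2, control 3 and Combi 1 on cartridge 2, and Combi 2 and Combi 3 on cartridge 3, so that only cartridge 2 holds both groups. A gene was read as above background when its count passed the mean plus 2 SD of 8 negative probes, as 422 of the 730 genes did in all 6 samples and 109 did in none. After scaling, the mean of the negative probes was 11.7 to 20.6 in control and 7.25 to 14.6 in Combi (log2 ratio -0.67), and the 109 genes at background had a median log2 difference of -0.35. The 14 intestinal epithelium markers on the panel were above background in all 3 Combi samples (12 in all 3 control samples) and summed to 6627 to 8790 scaled counts in control and 16827 to 18344.0 in Combi, with 9 of them called higher. Of the fibroblast markers, 6 of 11 were below background in all 6 samples, including COL1A2, COL3A1 and PDGFRA. None was above background in all 3 control samples, 4 were in all 3 Combi samples, and 1 was called higher. The list summed to 163 to 245 in control and 220 to 233 in Combi. The 14 blood cell markers summed to 614 to 687 in control and 731 to 856 in Combi, with 1 called higher. CD40, MPO, RAC2 and RASGRP2 were above background in all 3 control samples, and CSF1R, IL2RA, IL2RB and GZMB were below it in all 6 samples. In bulk RNA, fewer cells that use a gene and less RNA per cell cannot be told apart.

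Combi raised 99 genes and lowered 48 of the 730, at an adjusted p of at most 0.05 and a change of at least 1.5-fold (edgeR quasi-likelihood test, Benjamini-Hochberg adjustment over all 730 genes). These are 13.6% and 6.58% of the panel, the shares beside which the counts of each gene list below are to be read. The genes that rose had a median log2 fold change of 1.04 and a median of 109.75 scaled counts in control, and those that fell had -0.86 and 1047, as probe counts that are not corrected for differences between probes. A change of at least 2-fold was found for 51 of the genes that rose and 11 of those that fell, and a change of at least 4-fold for 10 and 2. Across the panel, all 3 Combi samples lay above all 3 control samples for 141 genes (19.3%) and below them for 122 (16.7%), and this held for 91 of the 99 and 47 of the 48 called genes. Over the whole panel of 730 genes the log2 fold change had a median of -0.10. Among the 422 genes above background in every sample, the SD between replicates had a median of 14.1% of the mean in control and 10.7% in Combi.

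**Figure D1:**
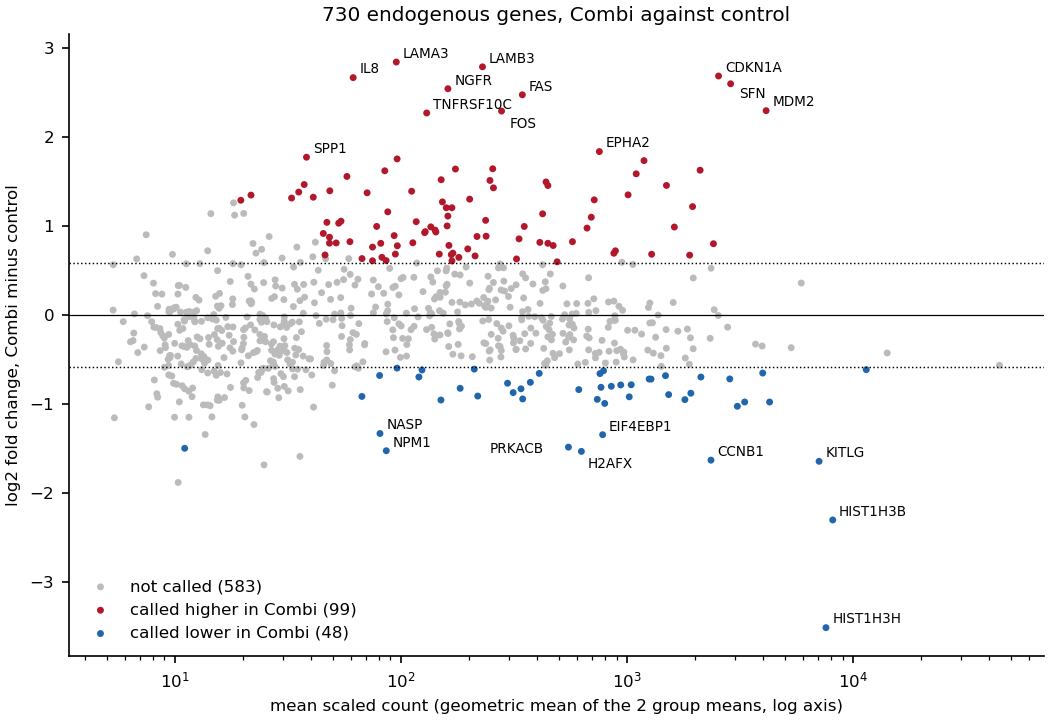
Level and change of the 730 genes: the horizontal axis is the geometric mean of the group means in scaled counts (log axis) and the vertical axis the log2 fold change, Combi minus control. Red points are the 99 genes called higher and blue points the 48 called lower, grey points were not called, dotted lines mark 1.5-fold, and the 2 lowest blue points are the histone genes HIST1H3H and HIST1H3B.

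Genes known to be induced by DNA damage were mostly higher in Combi, in a list chosen with earlier results of these data known. Of the 18 on the panel, 15 rose and none fell (median log2 fold change 1.40, against -0.10 for all genes), and these included cell cycle inhibitors, death receptors, a ubiquitin ligase and repair genes. CDKN1A, the inhibitor of cyclin-dependent kinases, stood at 768, 896 and 1346 scaled counts in the control samples and at 5847, 6877 and 6598 in the Combi samples, a 6.42-fold rise (log2 fold change 2.68 ± 0.18, SE; adjusted p = 1.67e-10). SFN encodes 14-3-3 sigma, which holds cells before mitosis, and its level went from 1205, 1055 and 1250.5 to 6969.95, 7208 and 7032 (6.04-fold, adjusted p = 1.7e-13). For MDM2, a ubiquitin ligase, control samples read 1679, 1852 and 2062 and Combi samples 8421, 9365 and 9633 (4.90-fold, adjusted p = 3.87e-13). The groups were far apart for all 3 genes, and each of them was among the 10 that rose at least 4-fold. The pro-apoptotic BAX read 572, 723 and 664 in control and 1863, 2293 and 2353 in Combi (3.32-fold, adjusted p = 1.12e-09), and the stress gene GADD45A read 621, 656 and 625 against 1714, 1565 and 1568 (2.55-fold, adjusted p = 8.3e-08). DDB2, a sensor of ultraviolet lesions in nucleotide excision repair, rose 2.14-fold, the nuclear body gene PML 1.98-fold and PCNA, the sliding clamp of DNA polymerases, 1.65-fold. Samples did not overlap for any of these. Members that were not called included IGFBP3, which no control sample showed above background (17.9 ± 5.71 in control and 29.2 ± 3.12 in Combi, SD, n = 3) and BID (216 ± 14.2 and 158 ± 15.1).

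All 6 receptors in the list of death receptors and ligands rose, the decoys TNFRSF10C and TNFRSF10D among them. The 3 ligands of the same list, TNF, FASLG and TNFSF10, were not called and were above background in at most 1 sample of a group. FAS, the receptor for FAS ligand, read 121, 149.7 and 168 in control and 834, 819 and 786 in Combi (5.55-fold, log2 fold change 2.47 ± 0.13, SE; adjusted p = 3.32e-12). NGFR, the low-affinity neurotrophin receptor, read 69.2, 65.0 and 67.2 against 320.4, 443 and 403 (5.82-fold, adjusted p = 9.62e-11). Both receptors were thus low among the untreated cells, NGFR evenly so, and several-fold higher in every Combi sample. Among the receptors for TRAIL, the membrane-anchored decoy TNFRSF10C had the largest fold change, from 67.5, 49.9 and 60.5 to 323, 290.4 and 244 (4.82-fold, adjusted p = 1.62e-09). The second decoy TNFRSF10D rose 2.74-fold (270.2 ± 22.2 to 739.9 ± 21.4, SD), and the signalling receptors TNFRSF10A and TNFRSF10B rose 2.46-fold and 2.20-fold. Of the BCL2 family and caspase genes, BAX was the only 1 of 14 called. CASP8, which death receptors recruit, read 341 ± 46.9 in control and 433 ± 37.6 in Combi (adjusted p = 0.0827), and the inhibitor of apoptosis BIRC3 11.6 ± 8.1 and 28.5 ± 6.12 (adjusted p = 0.0521, no control sample above background).

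**Figure D2:**
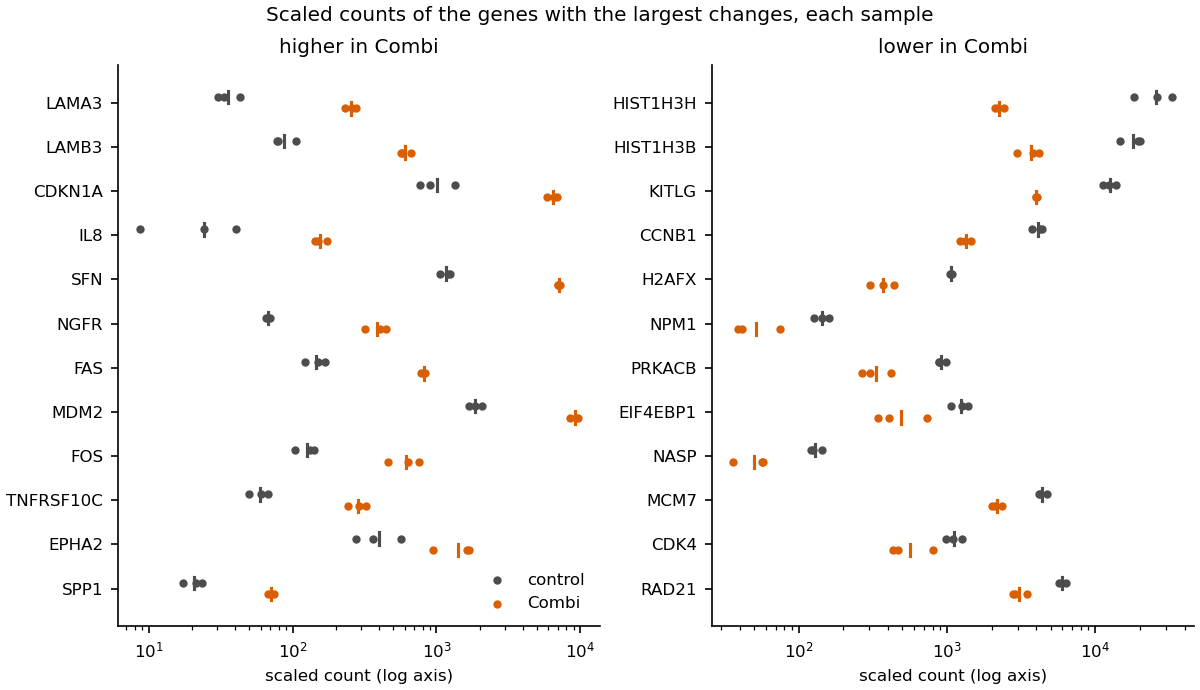
Scaled counts (log axis) of the 12 genes with the largest fitted rise and the 12 with the largest fitted fall whose groups do not overlap. Each point is 1 sample, grey for control and orange for Combi, and the short vertical line is the mean of 3 samples; CDKN1A lies between 768 and 1346 in control and between 5847 and 6877 in Combi.

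AP-1 subunits, which pair as FOS and JUN proteins on DNA, rose together. FOS went from 133, 141 and 104 scaled counts to 638, 463 and 752 (4.89-fold, adjusted p = 3.09e-09), JUN from 43.2, 62.0 and 52.1 to 157, 192 and 181 (3.37-fold, adjusted p = 1.07e-06), and FOSL1 from 424, 438 and 513 to 1102, 1102 and 1161 (2.45-fold, adjusted p = 2.53e-07). With the orphan nuclear receptor NR4A1 (1.90-fold), 4 of 6 immediate-early genes on the panel rose and none fell. The remaining members were NR4A3, near background, and MYC, which was lower in Combi without reaching 1.5-fold (1733 ± 202 and 1163 ± 133, SD; adjusted p = 0.000976). The list labelled ERK feedback genes split. The phosphatases DUSP5 (1200.4 ± 152 to 3701 ± 153, 3.08-fold), DUSP4 (1.97-fold) and DUSP8 (1.89-fold) rose. The cytoplasmic ERK phosphatase DUSP6 fell from 2274, 1453 and 2533 to 1144, 1093 and 1128 (1.86-fold, adjusted p = 4.94e-05), and the ETS factor ETV1 fell 1.83-fold. The 6 others of the 11 in this list were not called.

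The neutrophil chemokine IL8 (now CXCL8) was not above background in any control sample (8.65, 24.2 and 40.3 scaled counts) and read 144, 173 and 149 in Combi (adjusted p = 1.71e-06). With control samples set at their background limits, IL8 was at least 4.51-fold higher in Combi. It belongs to the 7 of 20 NF-kB genes that rose, with none falling. RELA, the transactivating subunit, went from 157, 163 and 151 to 268, 503 and 488. The inhibitors that NF-kB itself switches on were also higher: TNFAIP3 2.63-fold, CYLD 1.84-fold and NFKBIA 1.72-fold. NFKBIZ rose 1.85-fold. Combi 1 lay well below Combi 2 and Combi 3 for RELA, although above all control samples. Among 54 interleukin, interferon and receptor genes 5 rose and none fell, beside 13.6% and 6.58% of the panel. Of the 54, 22 were below background in all 6 samples. Those that rose besides IL8 were the gp130 cytokine CLCF1 (15.6, 21.2 and 30.2 in control, none above background, and 78.4, 54.3 and 55.1 in Combi, at least 1.82-fold), IL12A, IL6R and IL1RAP. The feedback inhibitors SOCS1 (44.1 ± 18.3 to 114 ± 7.6, SD) and SOCS3 (81.9 ± 10.7 to 167 ± 41.3) rose together with STAT4 and JAK2, which makes 4 of 13 genes of the JAK-STAT list.

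Chains of laminin-332, the basement membrane protein of epithelia, were several-fold higher in Combi. LAMA3 read 43.2, 30.2 and 33.6 scaled counts in control, where 1 of 3 samples was above background, and 276, 259 and 232 in Combi (7.16-fold as fitted, log2 fold change 2.84 ± 0.18, SE; adjusted p = 4.22e-11). LAMB3 read 77.8, 78.6 and 106 against 661, 579.7 and 571 (6.89-fold, adjusted p = 4.22e-11). Both chains were higher in each Combi sample than in any control sample. The integrins that epithelia use to bind laminin rose as well: ITGB4 from 904 ± 361 to 2475 ± 239.7 (2.74-fold), ITGA3 from 1281 ± 331 to 2974 ± 106 (2.32-fold) and ITGA6 from 1017 ± 172 to 1627 ± 222 (1.60-fold). With the collagen receptor subunit ITGA2 (2.81-fold), 4 of 11 integrins rose and none fell. In the 38 extracellular matrix genes 10 rose and none fell, while the list's median log2 fold change was 0.06 and 11 members were below background in all samples. Others that rose were the plasminogen activators PLAU (566, 449 and 889 to 2455, 1618 and 1638) and PLAT (105 ± 56.1 to 241 ± 12.3), the matricellular THBS1 (3.11-fold), the basement membrane collagen COL4A5 (2.85-fold), fibronectin FN1, the laminin chain LAMA5, whose samples overlapped, and SPP1, which encodes osteopontin. SPP1 was not above background in any control sample and was at least 2.06-fold higher in Combi (70.9 ± 3.17). The junction gene CDH1 rose 1.76-fold (311 ± 156 to 545 ± 36.5), and the receptor tyrosine kinase EPHA2, also in the DNA damage-induced list, rose from 567, 275 and 361 to 945, 1682 and 1639.

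After the rise of FOS, JUN and FOSL1 had been seen, the 250 bases before the RefSeq start of each gene were searched for the AP-1 motif TGANTCA, which reads the same on both strands. It was found in 6.74% of 27305 promoters in the RefSeq table (GRCh38.p14), in 41 of the 548 panel genes that matched an entry, in 9 of 73 matched genes that rose and in 0 of 39 that fell. The 9 genes were LAMA3, LAMB3, IL8, SFN, FAS, FIGF, BAIAP3, CAPN2 and SHC1. A match describes letters in this window and says nothing of what binds there. The stretches with matches are shown for 4 of these genes that are described above, with the motif in capitals, 5′ to 3′ on the strand of the gene: LAMA3 at chr18:23872880-23872972 (plus strand), LAMB3 at chr1:209651420-209651456 (minus strand), IL8 at chr4:73740417-73740453 (plus strand) and SFN at chr1:26862964-26863000 (plus strand).
LAMA3: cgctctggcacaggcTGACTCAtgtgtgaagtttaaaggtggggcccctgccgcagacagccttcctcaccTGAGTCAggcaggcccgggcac
LAMB3: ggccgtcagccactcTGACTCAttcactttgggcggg
IL8: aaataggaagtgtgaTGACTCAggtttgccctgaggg
SFN: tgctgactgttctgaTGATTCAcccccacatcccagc
The LAMA3 window held 2 matches, which began 125 and 69 bases before the start. The single match began 67 bases before the start in LAMB3, 137 in IL8 and 170 in SFN.

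Replication-dependent histone genes fell most. HIST1H3H (now H3C10), which encodes the canonical histone H3 of S phase, read 32812, 25976 and 18149.96 scaled counts in control and 2094, 2428 and 2221 in Combi, an 11.4-fold fall (log2 fold change -3.51 ± 0.22, SE; adjusted p = 4.22e-11). HIST1H3B (now H3C2) read 19403, 20056 and 14772 against 2982, 4204 and 3799 (4.93-fold lower, adjusted p = 6.55e-08). The lowest control sample lay far above the highest Combi sample for both genes. Since histone H3 genes are close copies of one another, a probe may read more than 1 of them. H2AFX, the H2A variant that is phosphorylated at DNA breaks, read 1060.2, 1055 and 1086 against 436, 303 and 373 (2.89-fold lower, adjusted p = 2.51e-05), and the histone chaperone NASP, which was in no list, read 121, 125 and 143 against 36.4, 58.0 and 56.9 (2.52-fold lower). The replacement histones H3F3A and H3F3C fell less, by 0.65 and 0.61 on the log2 scale. In all, 10 of 46 histone and chromatin genes fell and 3 rose. The nucleolar chaperone NPM1 read 161, 144 and 126 against 75.0, 41.6 and 38.9 (2.88-fold lower, adjusted p = 0.000116). The maintenance DNA methyltransferase DNMT1 went from 1608 ± 249.6 to 978 ± 113, and the deacetylases HDAC1 and HDAC2 fell 1.62-fold and 1.65-fold, as did their partner SIN3A outside the list (1.92-fold). KAT2B, KMT2C and HDAC5 were the members that rose, and with cartridge as a block in the fit none of the 3 was called and 6 members were lower.

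Of 31 cyclin, CDK and CDK inhibitor genes 3 rose, 5 fell and 23 were not called. CCNB1, the mitotic cyclin, read 4270.1, 4383 and 3770 scaled counts in control and 1454, 1331 and 1229 in Combi (3.10-fold lower, log2 fold change -1.63 ± 0.10, SE; adjusted p = 6.89e-11). CCNA2, the cyclin of S and G2 phase, read 2290, 2916 and 2316 against 1521, 1195 and 1182 (1.93-fold lower), and the phosphatase CDC25C, which activates CDK1, read 208, 218 and 207 against 89.8, 116 and 117 (1.94-fold lower). CDK4, the partner of D-type cyclins, read 1271, 1104 and 988 against 805, 429 and 468, and the inhibitor CDKN1B fell 1.89-fold. CCND3 went from 69.4 ± 8.38 to 179.8 ± 56.5 and CCNE1 from 432 ± 89.7 to 764 ± 48.3 as the members that rose besides CDKN1A, although the call of CCND3 ended with cartridge as a block (adjusted p = 0.0745). CCND1 was not called (1704 ± 507 and 2268 ± 292; adjusted p = 0.0439, 1.33-fold). Of 10 mitosis and cohesin genes 5 fell and none rose, with a median log2 fold change of -0.79: the cohesin subunits RAD21 (6002 ± 313 to 3048 ± 384), STAG2 and SMC1A, the spindle checkpoint kinase TTK, and PTTG2, a close copy of the securin gene PTTG1 whose reads may not be separable from it. The microtubule destabiliser STMN1 fell from 4554, 4668 and 4745 to 2693, 2219.56 and 2184 (1.97-fold lower). Among 14 replication genes, the helicase subunits MCM7 (4256, 4718 and 4205 to 2356, 2114 and 2005), MCM4 and MCM5 and the loading factor CDC6 fell, PCNA and POLD1 rose, and MCM2 was not called (348 ± 43.9 and 287 ± 67.6; adjusted p = 0.358).

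CCAAT is a common promoter motif that the factor NF-Y is known to bind in histone and cell cycle genes. In either orientation (CCAAT or ATTGG) it was found in 32.9% of the 27305 promoter windows and in 186 of the 548 matched panel genes (33.94%). It was found in 24 of the 39 matched genes that fell and in 22 of the 73 that rose. The genes that fell and held it included HIST1H3H, HIST1H3B, H2AFX, CCNB1, CCNA2, CDC25C, MCM7, NASP and CDC6. Stretches are shown for some of these genes from the histone and cyclin lists, the motif in capitals: HIST1H3H at chr6:27809940-27810016 (plus strand), HIST1H3B at chr6:26032134-26032210 (minus strand), CCNB1 at chr5:69167048-69167114 (plus strand), CCNA2 at chr4:121823920-121823954 (minus strand) and CDC25C at chr5:138331870-138331904 (minus strand).
HIST1H3H: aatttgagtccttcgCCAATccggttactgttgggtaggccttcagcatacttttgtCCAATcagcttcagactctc
HIST1H3B: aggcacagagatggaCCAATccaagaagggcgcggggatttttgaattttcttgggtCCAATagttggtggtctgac
CCNB1: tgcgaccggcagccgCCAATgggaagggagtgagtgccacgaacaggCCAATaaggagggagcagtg
CCNA2: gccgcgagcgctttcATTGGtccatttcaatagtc
CDC25C: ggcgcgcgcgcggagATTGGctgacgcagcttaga
In both histone genes the matches began 96 and 54 bases before the start, and in CCNB1 they began 87 and 55 bases before it. CCNA2 and CDC25C held 1 match each, in the opposite orientation. The box TATAAA was found in 11.3% of all windows, in 46 of 548 panel genes (8.39%), in 6 of 39 genes that fell and 6 of 73 that rose. The cAMP response element TGACGTCA was found in 1.74% of all windows, in 16 panel genes (2.92%), in 2 that fell and 3 that rose. For the heat shock element the values were 0.44%, 2 panel genes (0.36%), 0 and 0. In all 6 motifs were searched, of which 1 is not reported here.

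Of 39 DNA repair and damage signalling genes 5 rose and 6 fell, beside 13.6% and 6.58% of the panel, and scaling by TMM left 3 lower. The kinase ATM rose from 43.2, 55.9 and 77.3 to 105, 134 and 152 (2.23-fold, adjusted p = 0.000321), and ERCC6, which couples repair to transcription, from 109.8 ± 15.2 to 238 ± 7.75 (2.16-fold). The recombination gene RAD52 rose 1.84-fold. Lower were H2AFX, the Fanconi anaemia ubiquitin-conjugating enzyme UBE2T (1.89-fold), the base excision glycosylase NTHL1 (1.77-fold), the checkpoint kinase CHEK1 (955 ± 48.3 to 605 ± 20.9) and the excision repair gene XPA (1.52-fold). The groups did not overlap for any of the genes named here.

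KITLG, the ligand of the KIT receptor, fell from 11297, 12469 and 13772 scaled counts to 4054, 3964 and 3995 (3.12-fold, adjusted p = 1.67e-10). The neurotrophin BDNF also fell (486 ± 11.8 to 288 ± 24.5). Of the 42 growth factor genes 5 rose, beside 13.6% of the panel: PGF (36.3, 42.3 and 67.2 to 127, 162 and 156), FIGF (now VEGFD), FGF18, EFNA1 and PDGFA. FGF18 was above background in no control sample and its Combi level of 30.9 was under the mean control limit, so no bound on its fold can be given. VEGFA was not called (856 ± 9.52 and 704 ± 137; adjusted p = 0.147), nor was EGF (12.5 ± 1.82 and 27.2 ± 6.15; adjusted p = 0.0656).

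In the list of 24 protein kinase A, calcineurin and PP2A genes 3 fell, none rose and 21 were not called. PRKACB, a catalytic subunit, read 886, 884 and 985 in control and 423, 266 and 305 in Combi (2.80-fold lower, adjusted p = 7.26e-06), the regulatory subunit PRKAR2B fell from 299.8 ± 35.8 to 159.8 ± 11.2, and the calcineurin subunit PPP3CB fell 1.62-fold. Scaling by TMM called 1 member, PPP2CB, higher. In the PI3K-AKT-mTOR list of 24, the translation repressor EIF4EBP1 read 1065, 1258 and 1389.95 against 733, 342 and 404 (2.54-fold lower, adjusted p = 1.35e-05), DDIT4 fell 1.58-fold, and PIK3R2 and STK11 rose. PIK3CG was called lower on values of 34.6, 15.1 and 5.04 against 10.2, 6.32 and 3.59, which overlap and of which only control 1 was above background. PIK3CA (244 ± 20.4 and 258 ± 25.1; adjusted p = 0.731) was not called. Phospholipase and calcium channel genes gave 2 higher (PLA2G4C, at least 1.01-fold with control samples at their background limits, and PLCB4) and 2 lower (PLA2G4A and CACNA2D2) of 28, and none of the 4 calls held with cartridge as a block.

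In the Notch list of 22 genes 8 rose, 2 fell and 12 were not called, and with cartridge as a block 3 were higher and 1 lower. Those that rose were the receptors NOTCH3 (83.0, 69.5 and 116 to 211, 263 and 288), NOTCH1 (1.91-fold) and NOTCH2 (1.75-fold), the ligands JAG1 (1.81-fold), JAG2 (1.62-fold), DLL1 and DLL4, and the coactivator KAT2B. DLL4 was not above background in control and was at least 1.65-fold higher in Combi. The 2 members that fell, HDAC1 and HDAC2, act as corepressors in many pathways. Of 26 WNT ligands, receptors and inhibitors, WNT7B (33.7 ± 14.1 to 99.2 ± 19.6), WNT3 and the secreted WNT inhibitor DKK1 (1007, 1249 and 1200.03 to 2047, 2534 and 2265) rose and none fell. These are 3 of 26, beside 13.6% of the panel. In the beta-catenin list of 19, the feedback gene AXIN2 fell 1.60-fold (103 ± 19.5 to 63.0 ± 14.3), and JUN and FOSL1, described above, were the members that rose. CTNNB1 itself, which encodes beta-catenin, was lower in all Combi samples by less than 1.5-fold (4154 ± 258 and 3309 ± 232; adjusted p = 0.0271). WNT16 (1147 ± 241 and 827 ± 59.3), DKK2 and FGF9 were not called. In the TGF-beta list of 32, TGFB1 (1.99-fold), BMP7 (1.91-fold) and THBS1 rose, and BMP4 (1.93-fold) and the inhibitor of differentiation ID2 (1.74-fold) fell. These are 3 and 2 of 32, beside 13.6% and 6.58% of the panel.

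In the core RAS-ERK list of 27, log2 fold changes ran from -0.56 to 0.81. SHC1, an adaptor of receptor kinases, rose 1.59-fold. RASAL1, whose samples overlapped, and RASA4, which switch RAS off, rose 1.75-fold and 1.53-fold, and the other 24 were not called. Without overlap of the groups, 5 of the 27 were higher and 7 lower, beside 19.3% and 16.7% of the panel. None was called lower, but 3 were with limma on the authors' signal, 3 without control 1 and 4 without Combi 1. The JNK and p38 list of 24 had 4 higher, the scaffold filamin FLNC (145 ± 24.9 to 448 ± 102), GADD45A, RAC2 and MAP3K12. EGFR (1.51-fold), FGFR4 and IGF1R rose with EPHA2 among 19 receptor tyrosine kinases. No member of the Hedgehog list of 8 or of the list of 25 colon stemness and differentiation factors was called, the second including PROM1 (174 ± 20.3 and 191 ± 20.8; adjusted p = 0.602). In the stress list of 10, GADD45A rose and DDIT4 fell. The inducible heat shock gene HSPA1A, whose probe may also read its near-identical copy HSPA1B, stood at 26.4 ± 4.68 and 28.9 ± 10.4 (adjusted p = 0.816).

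**Figure D3:**
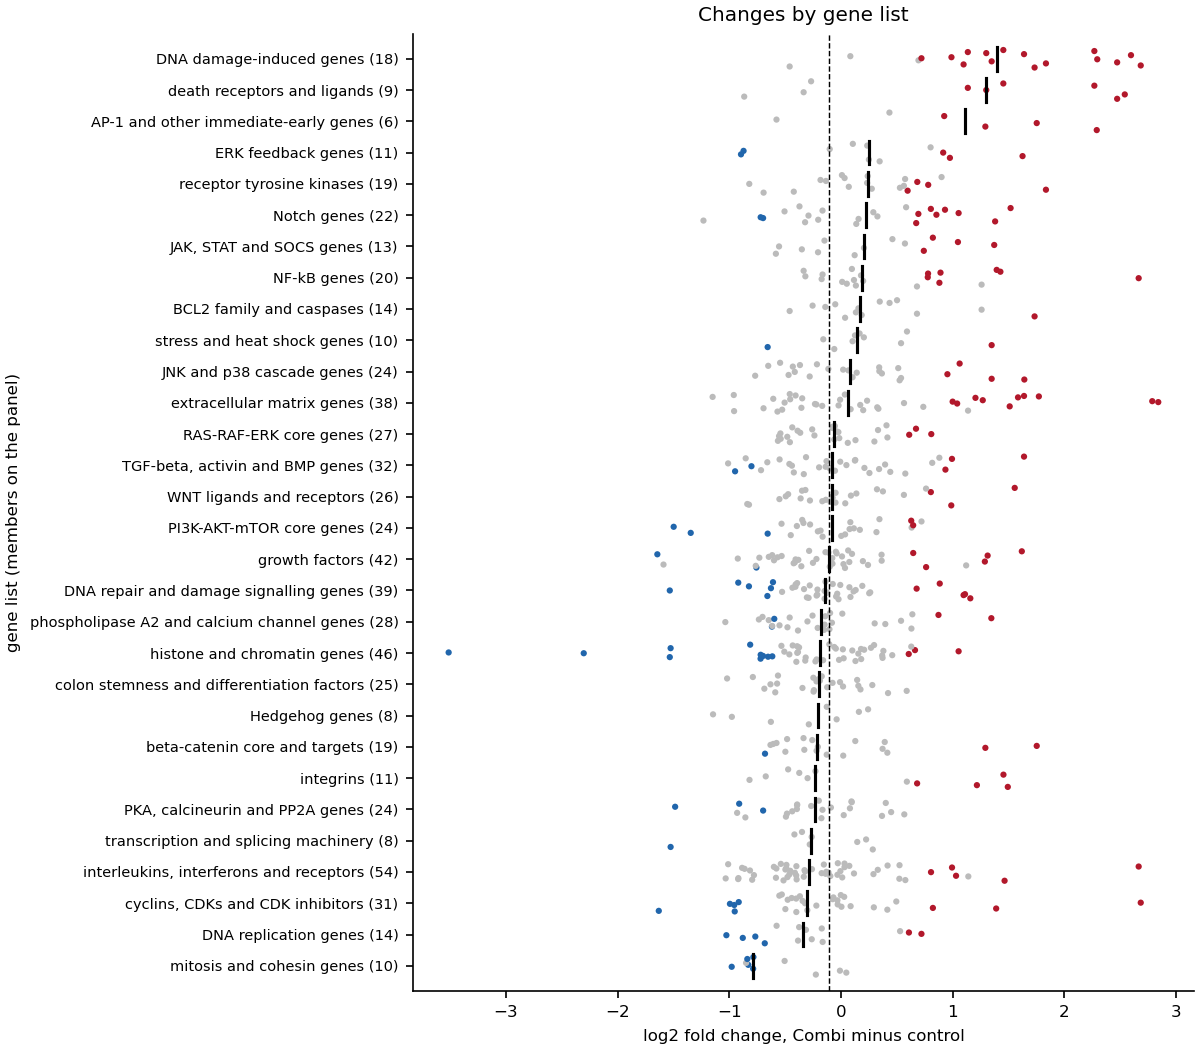
Log2 fold change (Combi minus control) of every panel gene in 30 gene lists, 1 row a list with its number of members. Points are genes, red for called higher, blue for called lower and grey for not called; black bars are list medians (1.40 for DNA damage-induced genes, -0.79 for mitosis and cohesin genes) and the dashed line is the median of all 730 genes, -0.10.

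Group and cartridge overlap only in part, so the comparison was repeated on cartridge 2, between Combi 1 and the mean of control 2 and control 3. With 1 Combi sample this has no replicate error and is given as values only. The cartridge term in the fit, described below, rests on the same contrast. Cartridge 3 holds Combi samples only, so Combi 2, Combi 3 and control 1 do not enter its Combi estimate. The spread in that fit comes from other samples, and its calls are not an independent check. All 99 genes that rose were higher there, 76 of them by at least 1.5-fold, a size that 103 genes of the panel (14.1%) reached, and 47 of the 48 that fell were lower, 37 by at least 1.5-fold, as 118 genes of the panel (16.2%) were. The samples of cartridge 2 had also entered the calls. For the 91 genes that rose and the 47 that fell without overlap of the groups, the sign there was fixed beforehand. Within this cartridge the log2 ratio was 2.38 for CDKN1A, 2.60 for SFN, 3.11 for LAMA3, -3.40 for HIST1H3H and -1.49 for CCNB1. The exception among the genes that fell was PIK3CG (0.02). Among the genes that rose, FGFR4 (0.03), IGF1R (0.07), POLD1 (0.09) and LAMA5 (0.14) hardly differed there, since Combi 1 read 132, 125, 61.4 and 108 scaled counts for them and Combi 2 read 262, 208, 113 and 281. With cartridge as a term in the edgeR fit, 61 genes were higher (8.36%) and 35 lower (4.79%), of which 56 and 30 were among the 99 and 48. The DNA damage-induced list then kept 14 of its 15 calls, losing PCNA (adjusted p = 0.123), and the death receptors all 6. The Notch list kept 3 higher and 1 lower, and the growth factor list none of the 5 higher. For CDK4, NPM1, SMC1A and STAG2 the block also ended the call (adjusted p 0.285, 0.135, 0.599 and 0.127). For DNMT1 the log2 fold change was -0.41 in place of -0.72, under 1.5-fold. In all, the block ended the call of 43 genes that rose and 18 that fell. Besides PCNA, FGFR4, IGF1R, POLD1 and LAMA5, those that rose were NR4A1, DUSP8, CCND3, ATM, RAD52, KAT2B, KMT2C, HDAC5, NFKBIA, IRAK2, SOCS3, STAT4, IL6R, IL1RAP, FN1, CDH1, PGF, FIGF, FGF18, EFNA1, PDGFA, EGFR, WNT7B, WNT3, DLL4, DLL1, JAG2, NOTCH2, TGFB1, BMP7, STK11, RASA4, PLA2G4C, PLCB4, BAIAP3, CAPN2, CIC and BAMBI. Besides PIK3CG, CDK4, NPM1, SMC1A, STAG2 and DNMT1, those that fell were CDKN1B, CDC6, MCM5, UBE2T, XPA, HDAC1, H3F3C, WHSC1, DDIT4, PPP3CB, PLA2G4A and CACNA2D2. Scaling by TMM in place of the housekeeping genes ended the call of 9 genes that fell (among them PLA2G4A, XPA, H3F3C, CACNA2D2, H3F3A, DDIT4, CHEK1 and AXIN2) and of none that rose. With counts under 20 set to 20, FGF18 turned from 1.29 to -0.10 on the log2 scale.

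**Figure D4:**
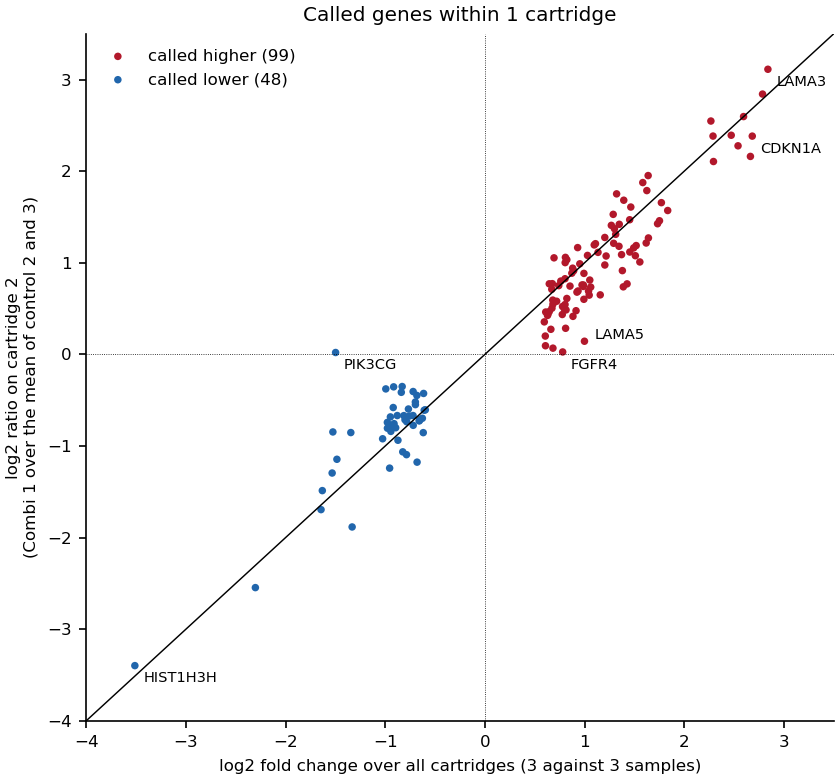
Called genes over all cartridges (horizontal axis, log2 fold change of 3 Combi against 3 control samples) and on cartridge 2 alone (vertical axis, log2 ratio of Combi 1 to the mean of control 2 and 3). Red points are the 99 genes called higher and blue points the 48 called lower, the diagonal marks equality, and PIK3CG is the 1 blue point above 0.

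The samples treated with 1 agent share the same 3 control samples. Their doses (40 µM TQ, 15 µM 5-FU) differ from the 35 µM of each agent in Combi. They were all run on cartridge 1, which held control 1 and no Combi sample. Treatment and cartridge therefore cannot be told apart between them and Combi, and their values are set beside the Combi values without a comparison. For CDKN1A the log2 difference from control was 2.68 in Combi, 2.18 with 5-FU and -0.95 with TQ, and for HIST1H3H it was -3.51, -3.35 and -0.22. FAS gave 2.47, 2.12 and -0.24, and LAMA3 2.84, 3.23 and -0.65. FOS gave 2.29 in Combi, -0.37 with 5-FU and 2.70 with TQ, and THBS1 gave 1.64, 1.31 and 2.07. For IL8 the values were 2.66, 0.78 and 1.42, for SPP1 1.77, -0.01 and 0.15, and for HSPA1A 0.20, 0.56 and 3.64. KITLG was lower in each, by log2 differences of -1.64, -1.40 and -1.27.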

How the data were processed

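RNA of HCT116 cells was read on the nCounter PanCancer Pathways panel. Raw counts were deposited for each probe, together with the authors' normalized signal, which nSolver gave; in the 6 samples used all 770 genes lay within 1% of the count less the geometric mean of the negative probes, floored at 1, times a sample factor. A deposited file of fold changes and p-values between groups was not used. Groups were taken from the labels and cartridges from the run names.

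Raw counts were scaled by the geometric mean of 40 housekeeping genes, whose log2 ratios ranged from -0.69 to 0.89 (5 past 1.5-fold), and tested with edgeR 4.0.16 (quasi-likelihood, 15 samples of 5 groups in 1 fit, no filter, Benjamini-Hochberg). A gene was called at an adjusted p of at most 0.05 and at least 1.5-fold. The fit was tested on simulated data. Alternatives were TMM, DESeq2 1.42.0, a filter and a floor of 20 counts, cartridge or replicate block, the 6 samples alone, limma 3.58.1 on log2 of the authors' signal, and leaving out each sample. Named genes were the 12 with the largest rise and fall without overlap, up to 6 called members a list, and names set beforehand, of which EGR1 was not on the panel. Members and lists were chosen with earlier results of these data known. Promoter windows came from RefSeq (GRCh38.p14) and covered 548 of 730 genes, 73 of 99 that rose and 39 of 48 that fell. Results for some genes are not reported here.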

Additional observations from a re-analysis of the deposited data

How the results depend on the processing

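The counts of 99 higher and 48 lower genes stayed within 1.5-fold under every alternative run except 1: with cartridge as a block 61 genes were higher (35 lower). In that fit the Combi estimate rests on Combi 1, since cartridge 3 holds Combi samples only. TMM gave 119 and 42, DESeq2 103 and 46, and limma on the authors' signal 110 and 68. Leaving out 1 sample gave 81 to 102 higher and 44 to 67 lower. With a replicate block 96 were higher and 47 lower. In deviations from their group means, same-numbered samples correlated at -0.31, -0.25 and -0.13 over 514 genes. Control 2 and control 3, on the same cartridge as Combi 1, correlated with it at 0.27 and 0.16. Since cartridge differs between samples of a group, these values cannot tell whether the numbers pair the samples. Of the genes named by the rule and reported here, these turned sign, of which FGF18 alone was called: with counts under 20 set to 20, BIRC3 (-0.21), EGF (-0.26), FGF18 (-0.10), FST (-0.95), IGFBP3 (-0.17) and SPRY1 (-0.16); with the cartridge block, PROM1 (-0.0942) and VEGFA (0.0112); and leaving out 1 sample, FST (-0.10 to 0.45) and PIK3CA (-0.0008 to 0.14). The causes were not tested. Background limits what can be said of low genes: 6 that rose had no control sample above it.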
